A study of Mus musculus with 4 samples.

Results

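The tachykinin system of the day 4 pregnant mouse uterus was described here through 7 genes: the ligand genes Tac1, Tac2 and Tac4, the receptor genes Tacr1, Tacr2 and Tacr3, and Mme, which encodes a peptidase that degrades tachykinins. They were taken by symbol from a table of 54152 genes, and all 7 were in it. The set was chosen because Tac2 and Tacr1 were low together in the libraries labelled dd, so the values of dd against ff are a description of these genes and no p-value is given for them. RNA was sequenced from whole uteri of pregnant C57 mice (day 4), in 2 libraries with the p38α genotype ff and 2 with the p38α genotype dd. The title of the series calls the uteri WT and p38α KO, and the labels name no promoter or cell type for the deletion. Nothing in the labels ties the replicates to separate animals, and the p-values below therefore reflect the spread among these samples alone, which may be technical.

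Tachykinins are short amidated peptides that share a C-terminal signature of phenylalanine, a variable residue, glycine, leucine and methionine. They act on G protein-coupled receptors that raise intracellular calcium through Gq and phospholipase C. Tac1 encodes substance P and neurokinin A, Tac2 encodes neurokinin B in the mouse, and Tac4 encodes hemokinin-1. Tacr1 encodes the NK1 receptor, preferred by substance P and hemokinin-1. Tacr2 encodes the NK2 receptor, preferred by neurokinin A, and Tacr3 the NK3 receptor, preferred by neurokinin B. Mme encodes neprilysin, a membrane peptidase that cleaves tachykinins outside the cell. In the uterus these peptides are known to contract smooth muscle, and they are released by sensory nerves as well as made by non-neuronal cells.

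The stretches below encode the ends of these peptides and show what the ligand genes share. Each gives 10 codons up to the last methionine and then the 3 codons of the amidation and cleavage site, 5′ to 3′ on the + strand, with the 5 codons of the signature in capitals. They were found by a search of GENCODE mouse transcripts (release M21, mm10).
Tac1, substance P, exon 3 of Tac1-205, chr6:7556735-7556773: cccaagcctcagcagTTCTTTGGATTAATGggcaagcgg
Tac1, neurokinin A, exon 6 of Tac1-205, chr6:7559101-7559139: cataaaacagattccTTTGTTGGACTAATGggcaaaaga
Tac2, neurokinin B, exon 6 of Tac2-202, chr10:127729116-127729154: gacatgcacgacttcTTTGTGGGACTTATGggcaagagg
Tac4, hemokinin-1, exon 2 of Tac4-201, chr11:95265263-95265301: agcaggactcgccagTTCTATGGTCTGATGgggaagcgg
The signature codons of Tac2 matched those of neurokinin A at 13 of 15 bases, those of substance P at 10 and those of Tac4 at 9. Over all 39 bases the closest pair was substance P and Tac4, with 28 identical bases, against 26 for Tac2 and neurokinin A. The precursor proteins have 130 residues for Tac1-205, 116 for Tac2-202 and 128 for Tac4-201. The counts of the table are per gene and do not separate the 2 peptides of Tac1 or the transcripts of any gene.

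The libraries held between 24619850 and 32451670 counts, and a floor of 3 counts corresponded to 0.0901 to 0.127 CPM (counts relative to the scaled library size). The counts of Mapk14, the p38α gene (chr17:28691329-28748406), were 3074 and 2710 in ff, against 2481 and 3429 in dd. It was not lower in dd (log2 change 0.28, adjusted p = 0.12), so each direction below rests on the labels ff and dd. The sources used here do not name the deleted exons, so counts per gene can neither bear out nor contradict those labels. Markers of the uterine tissue layers were present in every library, with sums over the lists of at least 1245 CPM for epithelium, 8819 for stroma and 6744 for smooth muscle. Of 18530 genes tested with edgeR's quasi-likelihood test, 1554 (8.39%) passed an adjusted p of 0.05. A fit with a library left out has fewer samples, so a call lost there, here and below, can reflect lost power alone. Without ff replicate 1 only 90 genes passed, and 607 and 350 passed without dd replicate 1 and dd replicate 2.

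Of the ligand genes, Tac2 was the only one above the floor of 3 counts in any library. Tac2 (chr10:127724478-127731768, + strand) had 399 and 118 counts in ff replicates 1 and 2, and 6 and 7 counts in dd replicates 1 and 2. Both ff libraries were far above both dd libraries, and ff replicate 1 was 3.16 times ff replicate 2 in CPM. The mean level was 7.89 ± 5.80 CPM in ff and 0.243 ± 0.0162 CPM in dd (SD, n = 2), a log2 change of dd over ff of −5.01 (SE 0.74). Per kilobase of transcript, the deposited FPKM values of Tac2 were 8.70 and 2.74 in ff and 0.183 and 0.168 in dd.

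Tac1, the substance P gene (chr6:7554879-7565834), had no count in either ff library and 2 and 1 in the dd libraries. Tac4, the hemokinin-1 gene (chr11:95261529-95269265), had 1 and 0 counts in ff, against 1 and 0 in dd. At this depth neither ligand gene could be told from 0, and no fold change is given for them. Their peptides can also reach the uterus in nerve fibres, whose cell bodies lie outside it, and the RNA counts do not measure that.

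Of the receptor genes, Tacr1 was likewise the only one above the floor. Tacr1 (chr6:82402334-82560104, + strand) had 783 and 253 counts in ff, against 7 and 15 in dd. Again the groups did not overlap, and ff replicate 1 was 2.90 times ff replicate 2 in CPM. Its mean was 15.8 ± 10.9 CPM in ff and 0.396 ± 0.141 CPM in dd, a log2 change of −5.28 (SE 0.696). Its FPKM values were 3.63 and 1.25 in ff and 0.0454 and 0.0766 in dd.

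Tacr2, the NK2 receptor gene (chr10:62252438-62265990), had 3 and 0 counts in ff, against 2 and 1 in dd. Tacr3, the NK3 receptor gene (chr3:134829007-134934579), had no count in ff, against 0 and 3 in dd. The preferred receptor of neurokinin B was thus not detectable at this depth in the ff libraries, where Tac2 had its counts, and the only receptor gene with more than 3 counts in a library was Tacr1. The authors' deposited table lists folds of 14.3 for Tac1 and 14.0 for Tacr3, which rest on 3 counts each in dd and none in ff.

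**Figure D1:**
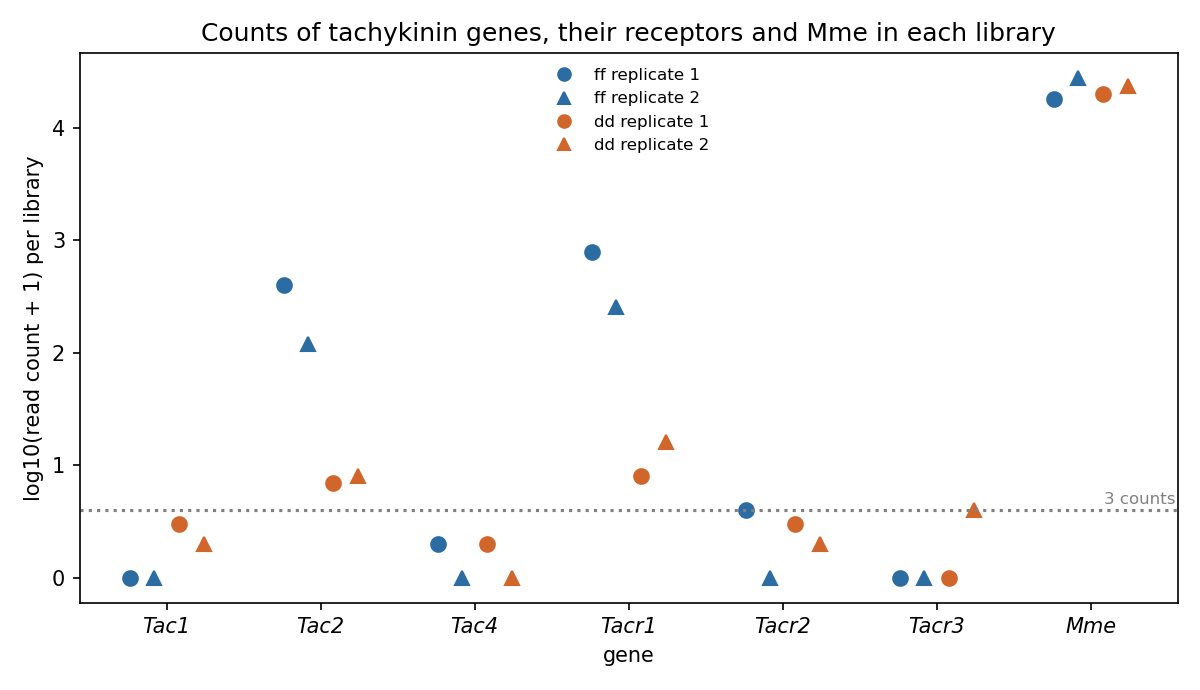
Read counts of the 7 genes in each library, as log10(count + 1) on the vertical axis, with circles for replicate 1 and triangles for replicate 2, blue for ff and orange for dd. Tac2 (399 and 118 in ff, 6 and 7 in dd) and Tacr1 (783 and 253, 7 and 15) separate by group, Mme is high in all 4 libraries, and the other genes lie at or below the dotted line of 3 counts.

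Tac2 and Tacr1 differed between libraries by similar factors. The CPM of Tacr1 divided by that of Tac2 was 1.96 in ff replicate 1, 2.14 in ff replicate 2, 1.17 in dd replicate 1 and 2.14 in dd replicate 2. The lowest of these ratios rests on 7 counts of Tacr1 and 6 of Tac2. In the order of all 18530 log2 changes, from the most negative, Tacr1 was at place 18 and Tac2 at place 20. These positions are those of genes picked for being low in dd. The gap between the ff replicates was also wide against other genes: 0.901% of tested genes had a gap between ff replicates at least as large as Tac2, and 1.00% one at least as large as Tacr1.

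The mean of the ff libraries was 32.5 times that of the dd libraries for Tac2 and 40.0 times for Tacr1. Using ff replicate 2 alone it was 15.6 times and 20.5 times, and using ff replicate 1 alone 49.4 times and 59.4 times. The lowest ff library was 14.9 times the highest dd library for Tac2 and 16.4 times for Tacr1. The size of the difference therefore depended on the ff library. Its direction was the same in every pair of an ff and a dd library, which restates the choice of these genes.

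Only 3 of the 7 genes, Tac2, Tacr1 and Mme, had enough counts to enter the test, the first 2 through their ff libraries alone. Tac2 and Tacr1 were called, against a background of 8.39% of tested genes called in either direction, 3.86% called lower and 4.52% called higher. The choice of these genes fixed that count, so nothing is read from it. The calls were present with all 4 libraries and without ff replicate 2, and 0 of the 7 genes were called without ff replicate 1, dd replicate 1 or dd replicate 2. The fitted log2 changes in those 3 settings were −3.95, −5.07 and −4.94 for Tac2, and −4.32, −4.98 and −5.72 for Tacr1.

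**Figure D2:**
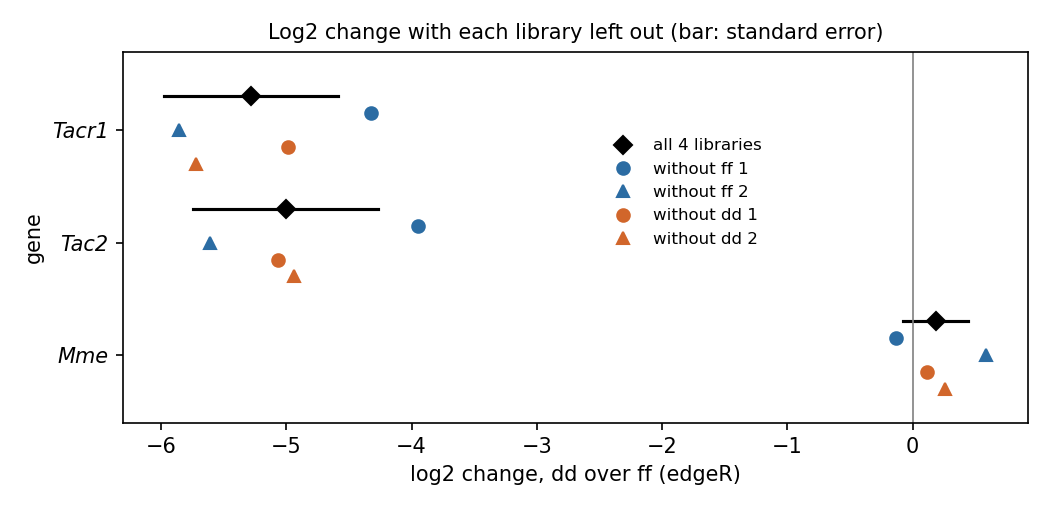
Log2 change of dd over ff (horizontal axis) for Mme, Tac2 and Tacr1 with all 4 libraries (diamond, bar for the standard error) and with each library left out. Tac2 stays between −5.61 and −3.95 and Tacr1 between −5.86 and −4.32, while Mme lies around 0, from −0.13 to 0.59.

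Mme, the neprilysin gene (chr3:63241537-63386030, + strand), was abundant in every library, in contrast to the ligands and receptors. It had 17810 and 27606 counts in ff, against 20055 and 23224 in dd. The dd values lay between the ff values, so the groups overlapped. The mean was 710.7 ± 248.4 CPM in ff and 807.7 ± 58.1 CPM in dd, a log2 change of 0.18 (SE 0.259). Leaving out ff replicate 2 gave 0.59, and leaving out ff replicate 1 turned the sign, at −0.13. In ff replicate 1, where Tac2 and Tacr1 were highest, Mme was lowest, at 0.604 of the CPM of ff replicate 2. By FPKM, with means of 61.5 in ff and 69.9 in dd, Mme ranked at place 621 of 54152 genes in ff and 615 in dd. Tac2 was at place 7789 in ff and 19265 in dd, and Tacr1 at 11261 and 22920.

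The other peptidases that cleave small peptides at the cell surface or inside cells moved in both directions. The counts for this and the later lists stand against a background of 4.52% of all tested genes called higher and 3.86% called lower. Of 12 tested members of a list of 15, 1 rose and 2 fell, with a median log2 change of −0.27 against 0.00 over all tested genes. Ace, the angiotensin-converting enzyme, which also cleaves substance P, fell from 54.6 ± 15.5 to 15.6 ± 0.911 CPM (log2 −1.81, SE 0.22, adjusted p = 0.0246). Dpp4, a dipeptidyl peptidase that trims peptide N-termini, rose from 45.8 ± 9.13 to 87.9 ± 3.48 CPM (log2 0.94, adjusted p = 0.0364). Enpep, an aminopeptidase of angiotensin peptides, went from 24.7 ± 0.412 to 17.4 ± 0.372 CPM without passing (adjusted p = 0.0621).

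Ace and Dpp4 kept their calls only without ff replicate 2. Their adjusted p otherwise ran from 0.0504 to 0.0733 for Ace and 0.0781 to 0.0906 for Dpp4. Per length, Anpep (aminopeptidase N) was the most abundant gene of the list and Mme came next in both groups. The FPKM means of Anpep were 329.0 in ff and 697.8 in dd, and its change did not pass (adjusted p = 0.0894). Ece1, the endothelin-converting enzyme, followed Mme with 35.1 and 18.8 FPKM and did not pass either (adjusted p = 0.0848). Antisense loci are annotated across Ace, Dpp4 and Enpep, and the sources used here do not state whether counting used strand.

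Genes that make and store neuropeptides were considered next. Of 12 listed genes 6 were tested and 0 passed edgeR's test (1 at an unadjusted p under 0.05, and 1 by DESeq2), with a median of −0.41. Cpe, the carboxypeptidase that trims peptide precursors, was at 202.7 ± 11.3 CPM in ff, against 227.4 ± 4.46 in dd. Pam, the enzyme that amidates the C-terminus, was at 99.7 ± 24.1 and 110.9 ± 6.14 CPM. The convertase genes Pcsk1 and Pcsk2, which cut precursors in secretory granules, stayed at 9 counts or fewer in every library and were not tested. Chga, the granule protein chromogranin A, had 60 and 12 counts in ff, against 1 and 2 in dd, without passing (adjusted p = 0.0854).

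Genes that couple the receptors to calcium release and switch them off had log2 changes mostly near 0. Of 22 tested genes 1 rose and 1 fell, with a median of −0.08, a share of calls near the 8.39% over all tested genes. At an unadjusted p under 0.05 there were 8 of the 22, and 3 were called by DESeq2. The G protein genes Gnaq and Gna11, which carry the signal of NK receptors, were at 86.8 ± 2.12 and 90.7 ± 0.0666 CPM in ff and at 92.4 ± 2.46 and 114.3 ± 4.55 CPM in dd, and neither passed (adjusted p = 0.505 and 0.0766). Itpr3, a calcium release channel, rose from 40.2 ± 0.57 to 63.2 ± 4.29 CPM (log2 0.65, adjusted p = 0.0287). Arrb1, the beta-arrestin that binds activated receptors, fell from 227.3 ± 49.8 to 99.5 ± 11.2 CPM (log2 −1.19, adjusted p = 0.0325). Itpr3 lost its call without any 1 library (adjusted p 0.0601 to 0.1), and Arrb1 kept it only without ff replicate 2 (otherwise 0.0743 to 0.0949). Both overlap antisense loci.

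Other receptors that act on smooth muscle and vessels were set beside Tacr1. Of 21 tested genes 1 rose and 6 fell, with a median of −0.69. Ednra, the endothelin A receptor, fell from 59.6 ± 2.78 to 33.7 ± 0.462 CPM (log2 −0.82, adjusted p = 0.0218). Bdkrb2, the bradykinin B2 receptor, fell from 46.7 ± 2.64 to 18.3 ± 4.03 CPM (log2 −1.34, adjusted p = 0.0264). F2r, the thrombin receptor, fell by 1.30 and Ptgfr, the prostaglandin F receptor, by 1.13 on the log2 scale (adjusted p = 0.0356 and 0.0362). Ednrb and Ptger3 were the other decreases, by 0.71 and 0.95. The increase was Oxtr, the oxytocin receptor, with 260 and 203 counts in ff, against 1480 and 812 in dd (log2 2.64, adjusted p = 0.0367; 1.91 without dd replicate 1). Ednrb, Ptger3 and Oxtr were named after their values were seen.

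Per length, Tacr1 stood at place 8 among these 22 receptor genes in ff, with a mean of 2.44 FPKM between Agtr1a (5.46) and Ptgfr (2.24). In dd it was last, at 0.061 FPKM, below Hrh1 at 0.109. The ff value of Tacr1 spanned 1.25 to 3.63 FPKM, so its place next to Ptgfr is not beyond that spread. Fewer receptors passed with a library left out, while their log2 changes kept their sign. Over all settings that of Ednra ran from −0.907 to −0.778, that of Ptgfr from −1.317 to −0.955 and that of Oxtr from 1.909 to 3.128. Without ff replicate 1 none of them passed, Bdkrb2 passed whichever other library was left out, and 2 to 4 of the list passed in those fits. Ednra passed only without ff replicate 2 (adjusted p = 0.0401, otherwise 0.0571 to 0.0695), F2r also failed without ff replicate 2 (0.06), Oxtr likewise (0.0884), Ptger3 passed only without dd replicate 1 (0.0333), and Ptgfr and Ednrb lost their calls whichever library was left out.

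**Figure D3:**
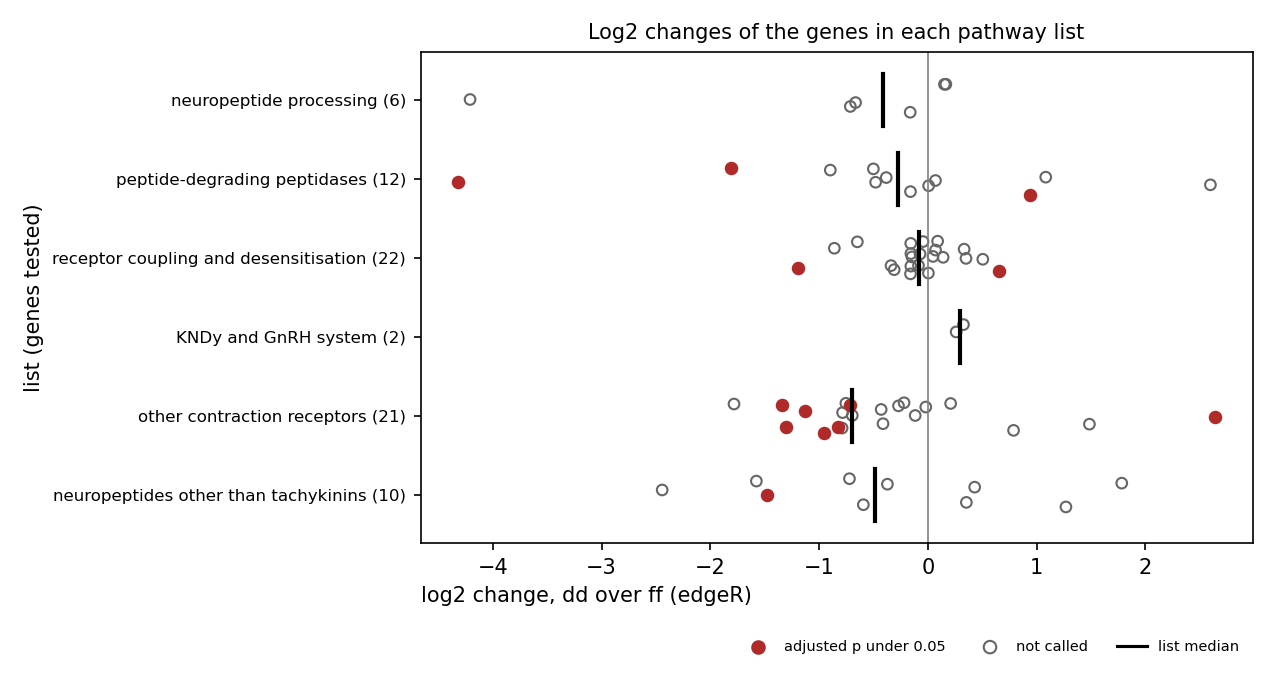
Log2 change of dd over ff (horizontal axis) for each tested gene of 6 pathway lists, with the number tested in parentheses, filled red where the adjusted p was under 0.05 and a bar at the list median. Contraction receptors lie mostly below 0 (median −0.69) with Oxtr at 2.64, and coupling genes gather near 0 (median −0.08).

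Among other neuropeptide and peptide hormone genes, 10 of 20 were tested, 0 rose and 1 fell, with a median of −0.48. Penk, the enkephalin precursor gene, fell from 154.6 ± 7.23 to 55.6 ± 19.1 CPM (log2 −1.48, adjusted p = 0.0367). Its call was lost without ff replicate 1 (adjusted p = 0.113) and ff replicate 2 (0.0624). Calca, which encodes CGRP, the usual partner of substance P in sensory fibres, had 80 and 121 counts in ff, against 82 and 151 in dd, without passing (adjusted p = 0.457). Npy, the neuropeptide Y gene, had 113 and 3 counts in ff, against 1 and 0 in dd and was not tested. By FPKM, Tac2 was at place 4 of 21 peptide genes in ff, with 5.72, and at place 13 in dd, with 0.176.

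In the hypothalamus, neurokinin B is made with kisspeptin and dynorphin in neurons that drive GnRH release. Of the 6 genes of that system, Kiss1 and Oprk1 had no count in any library, and Pdyn had 4 counts at most. Gnrh1 (85 and 86 counts in ff, 78 and 93 in dd) and Kiss1r (60 and 51, 62 and 52) were tested with edgeR and neither passed (adjusted p = 0.492 and 0.534; 0 at an unadjusted p under 0.05 and 0 by DESeq2). Kiss1r overlaps R3hdm4 on the opposite strand, so its counts are uncertain.

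The genes whose profiles over the 4 libraries were most like that of Tac2 were Coch, Clca3a1, Syt15, Dlk1 and Dnah6, among 13986 candidates. Likeness was the distance between mean-centred log2(CPM + 0.5) values, and it was 0.526 for Coch, a secreted protein known from the inner ear, and 0.534 for Clca3a1, a chloride channel regulator. Tacr1 lay at a distance of 0.761 from Tac2, closer than all but 4 of the candidates; the pair was chosen for being low together in dd, so this closeness restates the choice. For Tacr1 the closest were Coch (0.455), the leucine-rich glycoprotein gene Lrg1 (0.507), the protease inhibitor gene Spink1 (0.79), Clca3a1 (0.9) and Ifi213 (1.28). By the same choice, Tac2 was closer to Tacr1 than all but 2 of the candidates.

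Coch had 4573 and 1189 counts in ff, against 118 and 140 in dd, and Dlk1, a membrane protein of the Notch ligand family, had 204 and 62 in ff, against 3 and 6 in dd. Spink1 had 2035 and 518 counts in ff, against 22 and 21 in dd. In all 3, ff replicate 1 was the higher ff library and both dd libraries were low, as in Tac2 and Tacr1. Ifi213 was different in its replicates, with 412 and 408 counts in ff, against 1 in each dd library. The mean dd levels of Tac2 (0.243 CPM) and Tacr1 (0.396 CPM) lay below the 0.5 added before the log, which compresses their profiles. Genes with other log2 changes could therefore be near, such as Syt15 (−2.96) for Tac2 and Ifi213 (−8.27) for Tacr1. Likeness over 4 libraries in 2 groups is a description only. Clca3a1 and Dnah6 overlap loci on the opposite strand.

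The genes most like Mme were Lyrm9, Dhrs3, Cacnb4, Sytl5 and Cyp2t4, at distances of 0.0351 to 0.0941. Dhrs3, a retinaldehyde reductase, had 2028 and 3289 counts in ff, against 2414 and 2717 in dd. Its lowest library by CPM was ff replicate 1 (60.9 CPM) and its highest ff replicate 2 (105.6 CPM), the same as for Mme (535.0 and 886.3 CPM).

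**Figure D4:**
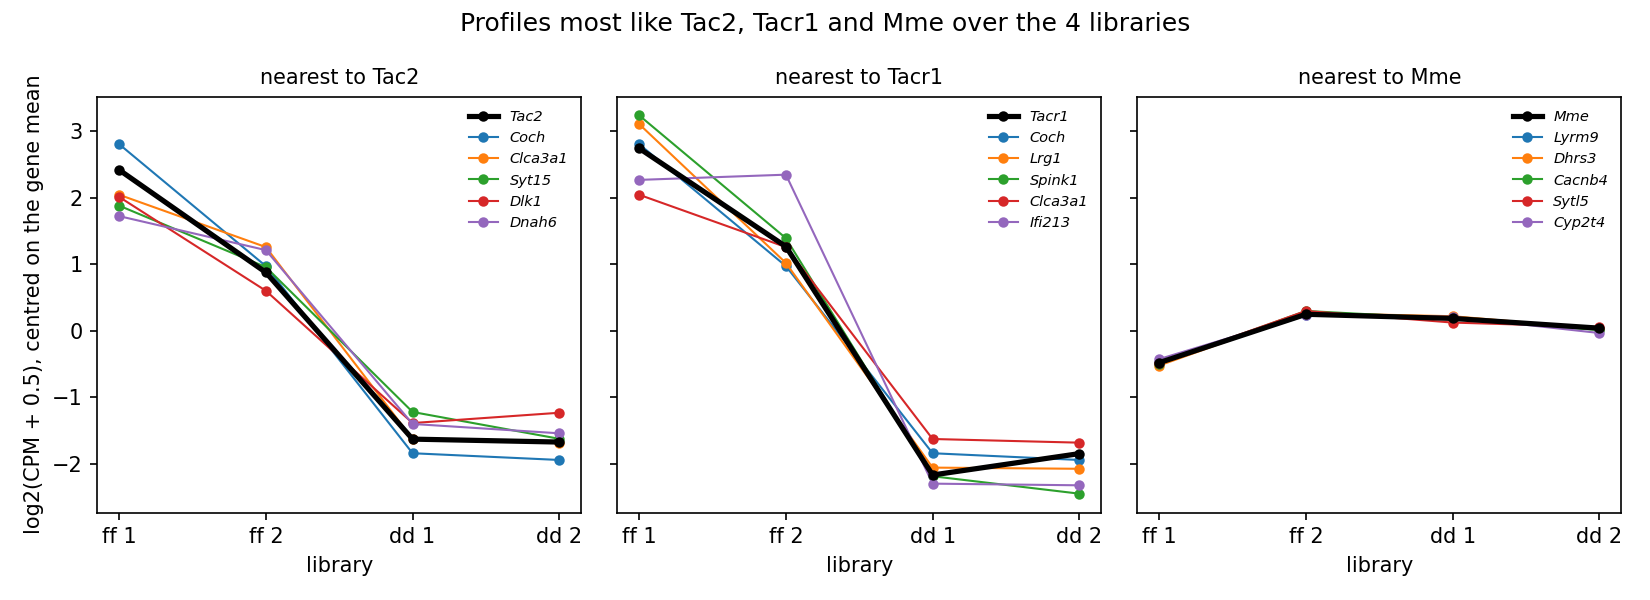
Centred log2(CPM + 0.5) in each library (horizontal axis) for Tac2, Tacr1 and Mme in black and the 5 genes nearest to each in colour; lines only join the values of a gene. Profiles like Tac2 and Tacr1 are highest in ff replicate 1, except Ifi213, and low in both dd libraries, while profiles like Mme are lowest in ff replicate 1.

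The genes next to Tac2 and Tacr1 on the chromosome did not pass the test. Beside Tac2, Myo1a (3.54 kb away) differed by −0.57 (SE 0.25) on the log2 scale, and Zbtb39 (7.77 kb away) by 0.25 (SE 0.127). Neither passed (adjusted p = 0.212 and 0.267), nor did Nemp1 (0.0546) and Gpr182 (0.295). Beside Tacr1, Pole4 (58.9 kb away) differed by a log2 value of −0.02 (adjusted p = 0.956), and Hk2, Eva1a and Mrpl19 did not pass (0.238, 0.343 and 0.195). Of the 4 tested neighbours of Mme, Plch1, a phospholipase C gene 310.2 kb away, rose from 5.16 ± 0.923 to 11.2 ± 0.319 CPM (log2 1.12, adjusted p = 0.0415), a call lost without any 1 library (0.0549 to 0.135). Neighbours were chosen by position after the values of the 7 genes were seen.

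The bases just upstream of Tac2 and Tacr1 are given because these genes differed together. They come from RefSeq (GRCm38.p6, the mm10 build), 5′ to 3′ on the + strand, and stop before the first annotated transcript start. Capitals mark a TGACG match (here on the opposite strand), the core of the cAMP response element.
Tac2, chr10:127724228-127724477: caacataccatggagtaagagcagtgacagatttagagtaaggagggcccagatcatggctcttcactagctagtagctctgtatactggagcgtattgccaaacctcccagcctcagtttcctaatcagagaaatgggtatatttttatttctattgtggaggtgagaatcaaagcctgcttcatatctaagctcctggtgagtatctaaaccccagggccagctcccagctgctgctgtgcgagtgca
Tacr1, chr6:82402225-82402333: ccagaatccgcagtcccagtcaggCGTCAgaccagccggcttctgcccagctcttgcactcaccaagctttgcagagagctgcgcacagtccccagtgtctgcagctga
All 7 genes had RefSeq windows of 250 bases before to 50 after a start. Searched on both strands, TGACG was present in those of Tac1, Tacr1 and Tacr3 and in 20.8% of 32851 windows. Neither Tac2 nor Tacr1 held TGACGTCA (the full cAMP response element, which contains TGACG; 1.79% of windows), TGANTCA (AP-1; 7.81%), the palindromic estrogen response element (0.07%), the palindromic progesterone or glucocorticoid response element (0.475%) or TATAAA (13.6%). Of these, TGANTCA was found in 2 of 3 windows of Mme, which overlap at that place, and TATAAA in that of Tacr3. The Tac2 window had 3 CpG and 48.3% GC and the Tacr1 window 7 CpG and 57.7% GC, against medians of 7 CpG and 52.7% over all windows. These letters say nothing on which factors bind there.

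Markers of several cell types moved with the groups (8.39% of all tested genes were called), and in whole tissue fewer cells of a type cannot be told from less RNA per cell. Their part in the differences of Tac2 and Tacr1 was not tested. The summed level of 12 endothelial markers was 1653 to 1946 CPM in ff and 903.1 to 903.5 CPM in dd, with 12 of 12 below 0 (median −0.94, 11 called lower; 1, 9, 4 and 3 without ff 1, ff 2, dd 1 and dd 2). For 12 stromal markers it was 15290 to 17310 CPM in ff and 8819 to 12030 CPM in dd (median −0.68, 4 called lower; 4 without ff 2 and 0 without any other library). For 12 epithelial markers it was 1245 to 1462 CPM in ff and 2835 to 3328 CPM in dd (median 0.97, 5 called higher; 0, 6, 4 and 1 in the same order).

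Among gland markers 1 of 6 tested genes, Spink1, was called, lower in dd, and the gland protease genes Prss28 (1844 and 6 counts in ff) and Prss29 (4319 and 10) had no count in dd. The summed gland level was 311.8 CPM in ff replicate 1, against 104.3 in ff replicate 2 and 125.8 and 110.3 in dd. The gland transcription factor gene Foxa2 had 315 and 398 counts in ff, against 415 and 443 in dd, without passing (adjusted p = 0.174). The members of the list did not order the libraries alike. In ff replicate 1, the library with the most Tac2 and Tacr1, Prss28 (55.4 CPM), Prss29 (129.7 CPM), Spink1 and Ttr were highest, and they made up most of the gland sum there. Cxcl15, a gland chemokine gene, was lowest in that library, at 22.7 CPM against 56.1 in ff replicate 2 and 72.6 and 75.9 in dd, and so was Foxa2. Spink1 was not called without dd replicate 1 or without dd replicate 2. Its log2 change was −5.80 and −5.38 in those fits, against −5.59 with all 4 libraries.

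Markers of nerves were scarce. Of 18 nerve markers 7 were tested, and the sum was 25.3 to 27.6 CPM in ff and 18.9 to 20.9 CPM in dd. The sodium channel gene Scn10a of sensory neurons had no count, and Trpv1, their heat-gated channel, had 2 at most. Of the 7 tested, 1 was called, lower in dd, and 0 were called without ff replicate 1, dd replicate 1 or dd replicate 2. Of 6 tested Schwann cell markers 0 passed edgeR's test (1 at an unadjusted p under 0.05, 1 by DESeq2), with sums of 67.2 to 72.2 CPM in ff and 49.0 to 71.6 CPM in dd. Of 10 smooth muscle markers 0 passed edgeR's test (0 at an unadjusted p under 0.05, 0 by DESeq2; median 0.23), with sums of 7441 to 8672 CPM in ff and 6744 to 11770 CPM in dd.

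Mast cells are known to respond to substance P. Of 6 tested mast cell genes 1 rose, namely the histamine enzyme gene Hdc (log2 1.09, adjusted p = 0.0435; a call kept only without ff replicate 2), which uterine epithelium also expresses. The mast cell protease genes Tpsb2, Cma1, Mcpt4 and Cpa3 had log2 changes of 1.38, 1.56, 1.14 and 1.08 and did not pass (adjusted p 0.124 to 0.315), although Tpsb2 did by DESeq2 (0.035). Kit, a receptor that mast cells need and other cells also express, was at 57.1 ± 21.2 CPM in ff, against 33.04 ± 6.25 in dd (log2 −0.79, adjusted p = 0.157), and passed as lower without ff replicate 2 (0.0481). Macrophage markers summed to 327.9 to 354.4 CPM in ff and 192.8 to 200.1 CPM in dd, with 7 of 7 below 0 and 4 called lower (0, 3, 1 and 0 without ff 1, ff 2, dd 1 and dd 2). Oviduct and ovary markers summed to 47.6 to 48.7 CPM in ff and 154.0 to 155.8 CPM in dd, with Ovgp1 of the oviduct at 898 and 775 counts in ff, against 2878 and 3776 in dd (log2 2.25, adjusted p = 0.00644), the only call of 3 in that list that held whichever library was left out. Ovgp1 alone was at 27.0 and 24.9 CPM in ff and at 121.8 and 124.7 CPM in dd, most of the dd sums. The other calls of that list were also higher in dd, Star (log2 0.82, adjusted p = 0.0367) and Foxj1 (log2 1.88, adjusted p = 0.0465). Of its 5 tested members, 2 lay below 0 without passing, Amh (log2 −0.35, adjusted p = 0.648) and Inha (log2 −0.18, adjusted p = 0.673). Cyp19a1 of the ovary had no count in any library.

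**Figure D5:**
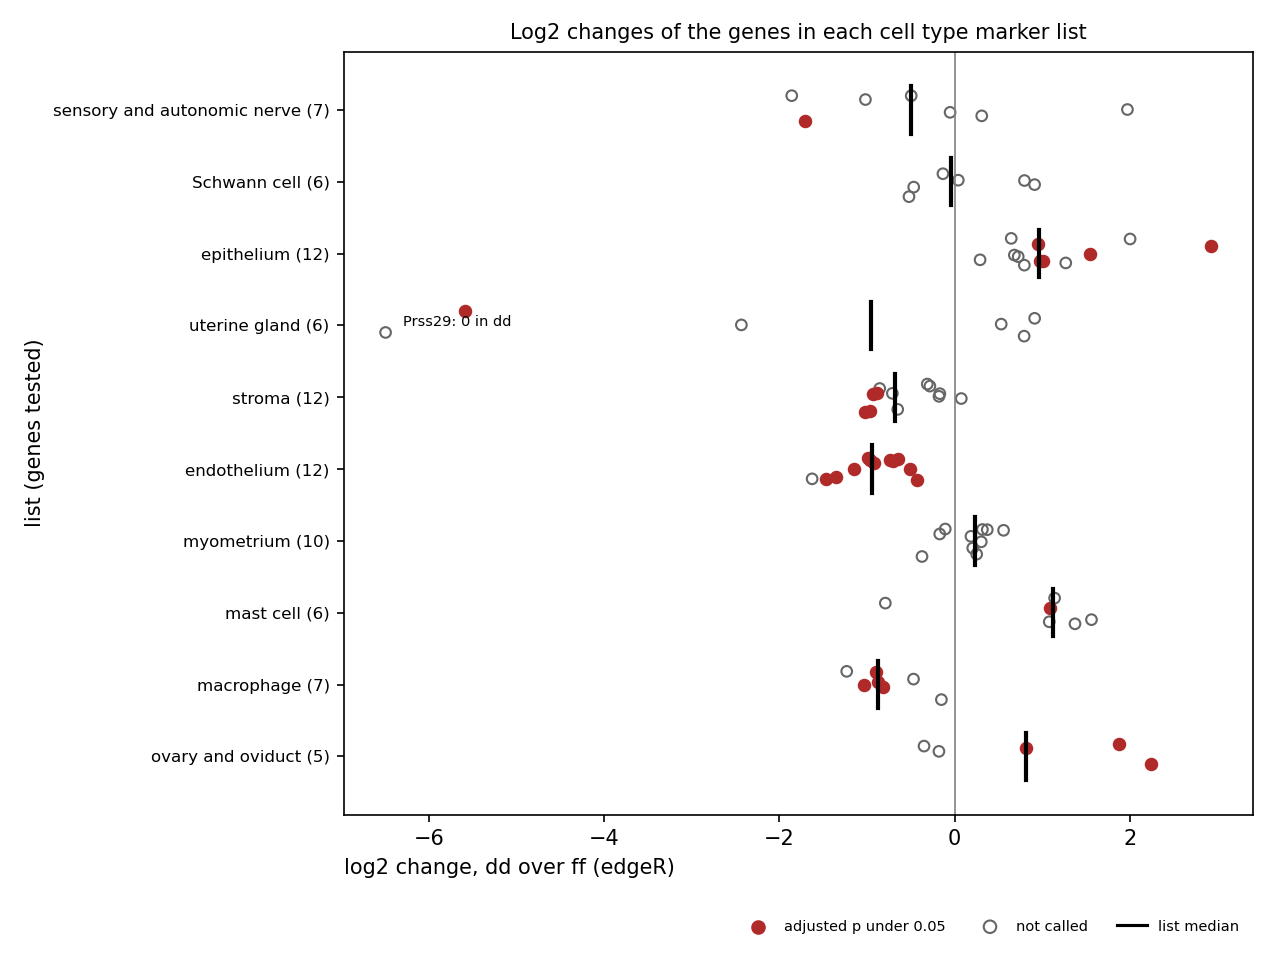
Log2 change of dd over ff (horizontal axis) for each tested gene of 10 cell type marker lists, filled red where the adjusted p was under 0.05, with a bar at the list median. Endothelial markers lie below 0 and epithelial markers above 0; Prss29, with no count in dd, is drawn at the left edge and not at a measured value.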

How the data were processed

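Whole-uterus RNA was sequenced in 4 libraries, 2 per group. Trizol extraction and a TruSeq library kit are stated per the labels' protocols, and selection of poly-A RNA in the design text. STAR, edgeR and mm10 are named per the submitters' processing notes. The sources used here do not state the counter, the annotation or whether strand was used. Of 101 genes named or compared, 37 lie across a gene of the other strand. These include genes not marked so above, such as Ednra, Ptgfr, Penk, Plch1, Nemp1, Zbtb39 and Gpr182. The deposited table holds the authors' raw counts, counts the authors rescaled (a signal column, not used), FPKM values per the file headers (RPKM in the design text), and the authors' fold (a ratio) and unadjusted p-value (the test is not stated, and it is not used).

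Counts were tested with edgeR 4.0.16 (R 4.3.3): TMM, filterByExpr, glmQLFit and glmQLFTest on all 4 libraries, with Benjamini-Hochberg adjustment over all 18530 tested genes. CPM uses TMM-scaled library sizes, and values are mean ± SD (n = 2). Log2 changes are dd over ff. The standard error (SE) of a log2 change is its size divided by the square root of the F statistic of edgeR's test. The test was checked on simulated counts. Replicates differed by more than sampling noise (chi-square per degree of freedom 32.0 in ff and 32.6 in dd). Positions come from GENCODE M21, which matched all 54152 symbols, and upstream sequences from RefSeq.

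The 7 genes and the lists were chosen with earlier results of these data known. Named were Mapk14, the 7 genes, the 4 members with the smallest p in each list (fewer where fewer were tested), and the 5 genes most like Tac2, Tacr1 and Mme (mean of at least 1 CPM, Gm and Rik loci left out); others were named after their values were seen. Alternatives were DESeq2 size factors, upper quartile factors, library size alone, the Wald test of DESeq2 1.42.0, a filter of 1 CPM in 2 libraries, no filter at all, a replicate block and each library left out. Some genes counted in the lists are not reported here by name.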

Additional observations from a re-analysis of the deposited data

How the results depend on the processing

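The log2 changes of Tac2 and Tacr1 stayed within −5.09 to −4.80 and −5.36 to −5.06 under the other scalings, filters, tests and the block. With each library left out in turn, a fit that assumes the lone library of a group to vary like the other group, they ran from −5.612 to −3.946 and from −5.855 to −4.321, that of Mme from −0.134 to 0.59, and between 0 and 2 of the 7 genes were called. Over all genes, 1554 calls (838 higher, 716 lower) became 2947 (1584, 1363) without a filter and 2860 (1518, 1342) with the DESeq2 Wald test. With library size alone 751 were higher and 1020 lower. Leaving out a library gave 90 to 1198 calls (62 to 726 higher, 28 to 472 lower). In the lists, 1 processing gene was called without a filter and 1 with DESeq2, 6 and 6 peptidases, and 3 and 2 other neuropeptides. With a library left out, calls ran from 0 to 1 for processing, 0 to 4 for peptidases, 0 to 1 for coupling, 0 to 4 for contraction receptors and 0 to 1 for other neuropeptides. The median of gland markers was 0.525 with the 1 CPM filter, which removes Prss29, that of macrophage markers −0.961 with library size alone, and that of oviduct and ovary markers 0.765 with upper quartile factors, 0.733 with library size alone and 1.341 with the 1 CPM filter. Medians with a library left out ran from −1.421 to −0.106 (nerve), −0.176 to 0.173 (Schwann cell), −1.452 to 0.332 (gland), −0.865 to −0.559 (stroma), −0.228 to 0.557 (smooth muscle), 0.736 to 1.886 (mast cell) and 0.735 to 0.898 (oviduct and ovary). Where no cause is named, the cause was not tested.

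The replicate numbers pair the samples only by number: deviations of same-numbered libraries had a correlation of 0.00873 over genes. The replicate block gave 1531 calls (878 higher, 653 lower) and log2 changes of −4.80 for Tac2 and −5.06 for Tacr1. Depth limits Tac1, Tac4, Tacr2 and Tacr3, whose counts of 0 to 3 per library allow no statement on a difference.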
